A study of Mus musculus with 6 samples.

Results

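The 7 genes described here, Kit, Stra8, Sohlh1, Sohlh2, Dmrtb1, Dmrt1 and Ccnd2, act as spermatogonia leave the undifferentiated pool and prepare for meiosis. They were taken as a named list, and every probe set whose single gene symbol in the platform annotation is one of them was used. That gave 14 of the 45037 probe sets in the table without controls: 7 for Ccnd2, 2 for Kit and 1 for each of the other genes. RNA came from whole testes at postnatal day 21 of 3 Nxf2 knockout (KO) and 3 wild-type (WT) mouse samples, with 1 Affymetrix array per sample and no treatment. The sources used here name neither the strain nor the knockout allele, and do not say whether the samples of a group came from separate animals. A p-value therefore reflects the spread among these samples, which may be technical. The design text speaks of pairs without saying what joins them, and the main fit did not pair the samples. Nxf2 is an X-linked germ cell relative of the general mRNA export receptor gene Nxf1.

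In the mouse, retinoic acid drives spermatogonia to differentiate and later to enter meiosis. SOHLH1 and SOHLH2, a pair of germ cell basic helix-loop-helix factors, act upstream of Kit, the receptor tyrosine kinase that binds the Sertoli cell product KIT ligand. DMRT1 and DMRTB1 (also called DMRT6) are DM domain transcription factors: DMRT1 holds back Stra8 in mitotic spermatogonia, DMRTB1 helps close the spermatogonial programme, and STRA8 starts the meiotic one. Cyclin D2, from Ccnd2, activates CDK4 and CDK6 in the G1 phase of the cell cycle and appears in mouse spermatogonia around the step to differentiation. Several of these genes also have somatic sources: Dmrt1 is used by Sertoli cells, Kit by Leydig and mast cells, and Ccnd2 by many dividing cells. In a whole testis, fewer cells of a type and less RNA per cell cannot be told apart.

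Promoter letters are shown for 3 of the genes. Stra8 is marked for the motifs of its known regulators, retinoic acid receptors and DMRT1. Sohlh1 and Dmrtb1 are marked for the E-box, which factors such as SOHLH1 and SOHLH2 bind at many germ cell genes. Binding at these 2 promoters was not examined. The RefSeq promoter table for GRCm38.p6 held 5 of the 7 genes, and the 250 bases before the annotated start were searched on both strands. Capitals in Stra8 (chr6:34920698-34920947, plus strand) mark the DM core ACANTGT and the nuclear receptor half-site AGGTCA. Capitals in Sohlh1 (chr2:25847249-25847498, minus strand) and in the upstream of the 2 Dmrtb1 starts (chr4:107684231-107684480, minus strand) mark the E-box CANNTG.
Stra8: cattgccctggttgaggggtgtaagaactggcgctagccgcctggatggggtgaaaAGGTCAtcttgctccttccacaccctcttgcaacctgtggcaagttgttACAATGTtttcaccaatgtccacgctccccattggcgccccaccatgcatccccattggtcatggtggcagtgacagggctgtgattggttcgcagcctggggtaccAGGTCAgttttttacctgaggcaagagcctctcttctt
Sohlh1: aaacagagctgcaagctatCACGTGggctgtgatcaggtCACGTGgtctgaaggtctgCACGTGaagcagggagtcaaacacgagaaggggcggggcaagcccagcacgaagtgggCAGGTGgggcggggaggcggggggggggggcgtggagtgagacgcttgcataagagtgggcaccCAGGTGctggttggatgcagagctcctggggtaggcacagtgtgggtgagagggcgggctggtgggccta
Dmrtb1: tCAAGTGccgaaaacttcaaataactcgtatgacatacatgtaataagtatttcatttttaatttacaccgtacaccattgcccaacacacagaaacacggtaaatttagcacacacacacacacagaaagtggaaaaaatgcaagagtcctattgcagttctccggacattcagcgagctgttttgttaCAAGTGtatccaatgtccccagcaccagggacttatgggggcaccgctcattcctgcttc

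The Stra8 window held 1 DM core, at 145 to 139 bases before the start, and 2 half-sites, the nearer at 38 to 33 bases. Of 27025 promoters of the same length, 6.55% held a DM core and 13.8% a half-site. Sohlh1 held 5 E-boxes, of which 3 read CACGTG, a form present at least 3 times in 0.0666% of promoters, a count made after these letters were seen. One Sohlh1 half-site, not capitalised, overlaps the second of those E-boxes, and the window also held 1 DM core, ACAGTGT. The upstream Dmrtb1 window held 2 E-boxes and the downstream one 3. Sohlh2 held 1, and the Stra8 window and both Kit windows none, where 66.0% of promoters held at least 1. These matches are descriptions of letters and were not tested against the expression values.

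The arrays were first checked against the labels. The only Nxf2 probe set had signals of 116, 106 and 131 in KO, against 374, 340.4 and 386 in WT, and fell by 1.59 on the log2 scale (limma, adjusted p = 0.000488). The sources used here do not place its probes inside or outside the deletion. Over the tested probe sets, the Spearman correlation of KO replicate 3 with the other KO arrays was 0.985 and 0.987, where those 2 arrays had 0.992 with each other. Among WT arrays it was 0.991 for replicates 1 and 3, 0.9885 for 1 and 2, and 0.980 for 2 and 3, the lowest within a group. Between the groups it ran from 0.965 to 0.9835, the highest being KO replicate 2 with WT replicate 2. The arrays therefore did not separate fully by genotype on this measure. Testis markers were present on all arrays, and 12 of 13 Sertoli, 7 of 7 Leydig and 9 of 9 pachytene spermatocyte genes measured passed the filter on dim values. Each difference below is a log2 fold change, KO minus WT, of the deposited signal plus 7, with the standard error (SE) or 95% interval of limma, and p was adjusted by Benjamini and Hochberg's method over the 27022 tested probe sets. A probe set counts as called where that adjusted p is below 0.05. The 95% intervals are for 1 probe set at a time and are not adjusted.

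All 14 probe sets passed the filter on dim values, and 13 had a higher mean in KO testes. Of these, 2 were called higher, both for Ccnd2, and the 1 with a lower mean, Dmrtb1, was called lower. Over all tested probe sets 2.26% were called higher and 5.23% lower, which is 610 and 1414 of them, or 247 and 1382 with each array centred on its median. The 3 KO values lay above the 3 WT values in 10 member probe sets and below them in 1, where 19.1% and 14.8% of all tested probe sets separated in those directions. As 7 of those 10 belong to Ccnd2, they are not independent of each other. With each gene represented by its brightest probe set, 0 of 7 genes were called higher and 1 lower by limma, with 4 higher at an unadjusted p under 0.05. The share of all tested genes under that unadjusted p was not counted, so such counts have no background here or below. An unadjusted p of 0.0488, that of the macrophage gene Adgre1, became 0.173 after adjustment, so values under 0.05 were common among all tested probe sets. The median difference of the 14 was 0.43, against 0.037 for all tested probe sets, but this median also counts Ccnd2 7 times. With each of the 7 genes represented by its brightest probe set the median was 0.20, against 0.037 for all tested genes.

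**Figure D1:**
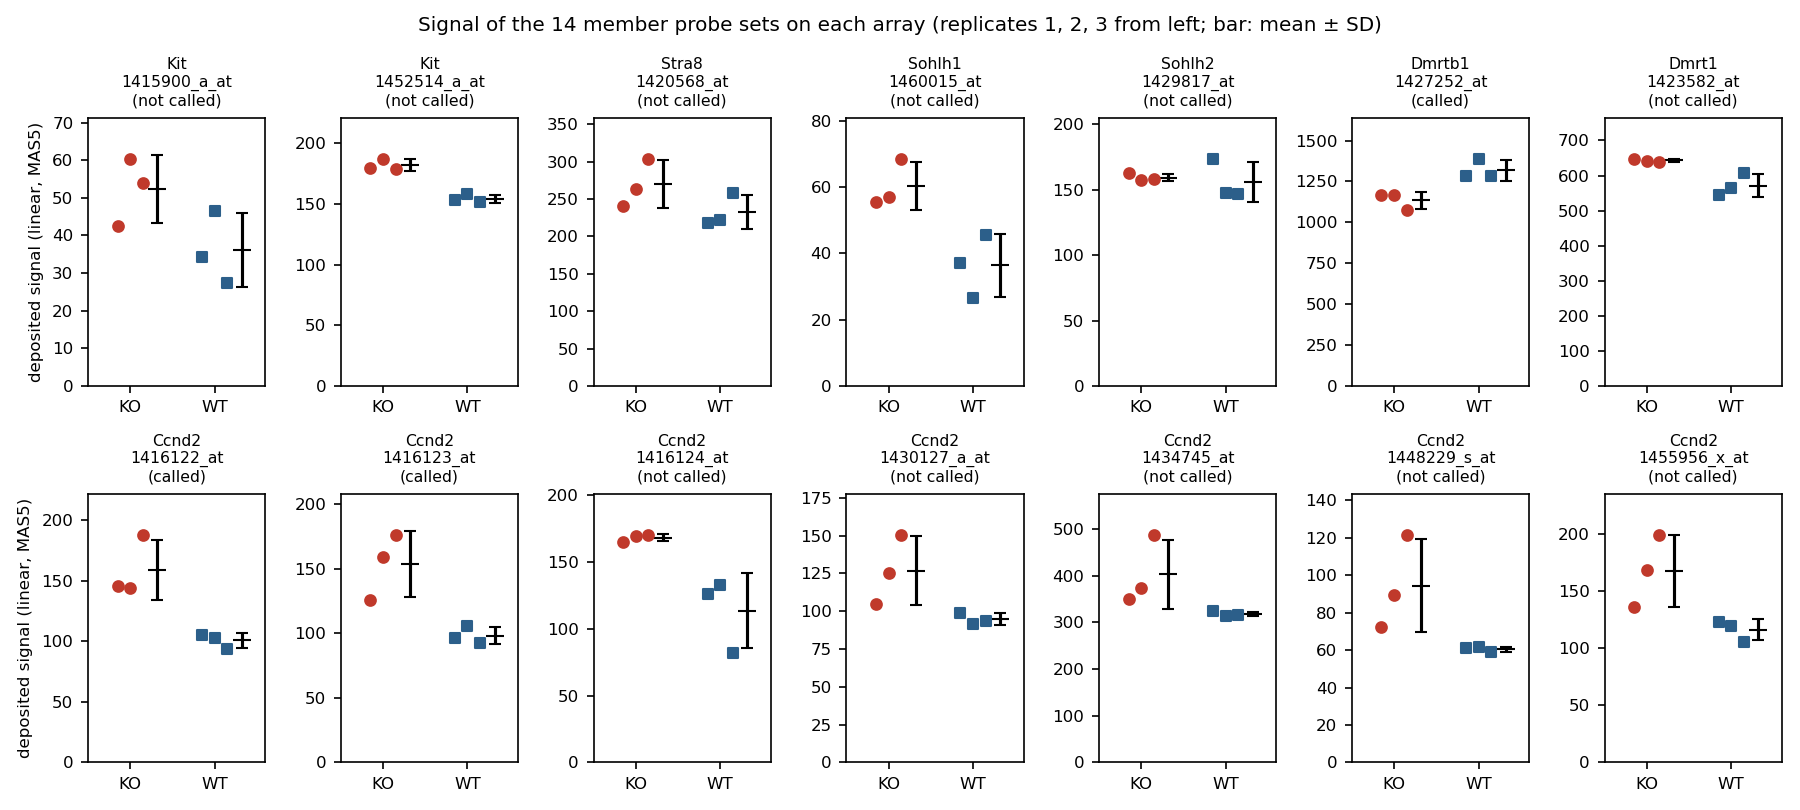
Deposited MAS5 signal (linear scale) of each of the 14 member probe sets, 1 panel each, with KO arrays as circles and WT arrays as squares, replicates 1 to 3 from left to right, and the mean ± SD beside them (n = 3 each). The KO points lie above all WT points in every Ccnd2 panel and below them for Dmrtb1.

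Ccnd2 was higher in KO on every one of its 7 probe sets, by 1.25-fold to 1.53-fold on signal plus 7, and 2 of the 7 were called. Probe set 1416122_at had signals of 146, 144 and 188 in KO, against 105, 103 and 93.9 in WT, and the difference was 0.62 ± 0.12 (SE, limma adjusted p = 0.0198). Probe set 1416123_at had signals of 126, 159.5 and 176 in KO, against 96.7, 105.5 and 92.2 in WT (log2 fold change 0.60 ± 0.13, adjusted p = 0.0268). In both, the lowest KO array lay above the highest WT array, and the KO arrays spread more widely than the WT arrays.

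The other 5 Ccnd2 probe sets did not pass, with adjusted p values between 0.0582 and 0.102. Probe set 1416124_at gave 165, 169 and 169.9 in KO, against 126, 133 and 81.5 in WT, with the WT spread set by replicate 3. The brightest, 1434745_at, gave 349, 372.5 and 487 in KO, against 323, 314 and 317 in WT, the smallest difference of the 7 (0.32, 95% interval 0.072 to 0.57). Probe set 1430127_a_at gave 105, 125 and 150.3 in KO, against 99.0, 91.6 and 93.4 in WT, so that KO replicate 1 lay close above the WT arrays. The remaining 2 carry suffixes for probes that can match more than one transcript: 1448229_s_at gave 72.4, 89.4 and 121.5 in KO, against 61.0, 61.6 and 59.0 in WT. Likewise 1455956_x_at gave 136, 169 and 199 in KO, against 123, 119.6 and 106 in WT.

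The 3 KO arrays did not contribute equally to Ccnd2. KO replicate 3 was the highest KO array on 7 of 7 probe sets, with a median of 0.75 above the WT mean on the log2 scale, against 0.51 in KO replicate 2 and 0.23 in KO replicate 1. In WT the same medians were 0.061, 0.031 and -0.081. Without KO replicate 3, 1416122_at kept its call (log2 fold change 0.50, adjusted p = 0.0443) and 1416123_at lost it (adjusted p = 0.0769). Both lost it without WT replicate 1 (adjusted p = 0.0801 and 0.111) or WT replicate 3 (adjusted p = 0.052 and 0.0623), and 1416123_at also without KO replicate 2 (adjusted p = 0.0716). Without KO replicate 1, 4 Ccnd2 probe sets were called.

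Among the KO arrays, markers of somatic cells were also highest on replicate 3. The summed signal of 8 macrophage genes was 2162, 2222 and 3309 in KO replicates 1 to 3, against 1755, 1479 and 2033 in WT, and 8 of 8 had higher KO means with none called (limma, 5 at an unadjusted p under 0.05). Likewise 8 endothelial genes summed to 315, 348 and 432 in KO, against 278, 274 and 270.2 in WT, with 2 of 8 called higher, Tek (0.48) and Robo4 (0.61). The 7 Leydig cell genes measured summed to 3247, 2858 and 4176 in KO, against 2431, 2376 and 2705 in WT, with 2 of 7 called higher, Star (1.01) and Scarb1 (0.32). The dimmer Star probe sets, at 0.58 and 0.88, were not called (limma, adjusted p = 0.165 and 0.1998). No marker was at 0 on any array. In WT the macrophage and Leydig sums were highest in replicate 3, where the Ccnd2 median was lowest (-0.081). The endothelial sum was lowest on that WT array. Among KO arrays the Leydig sum was lowest in replicate 2, and the Ccnd2 median in replicate 1. The part of these cells in the Ccnd2 difference was not tested.

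**Figure D2:**
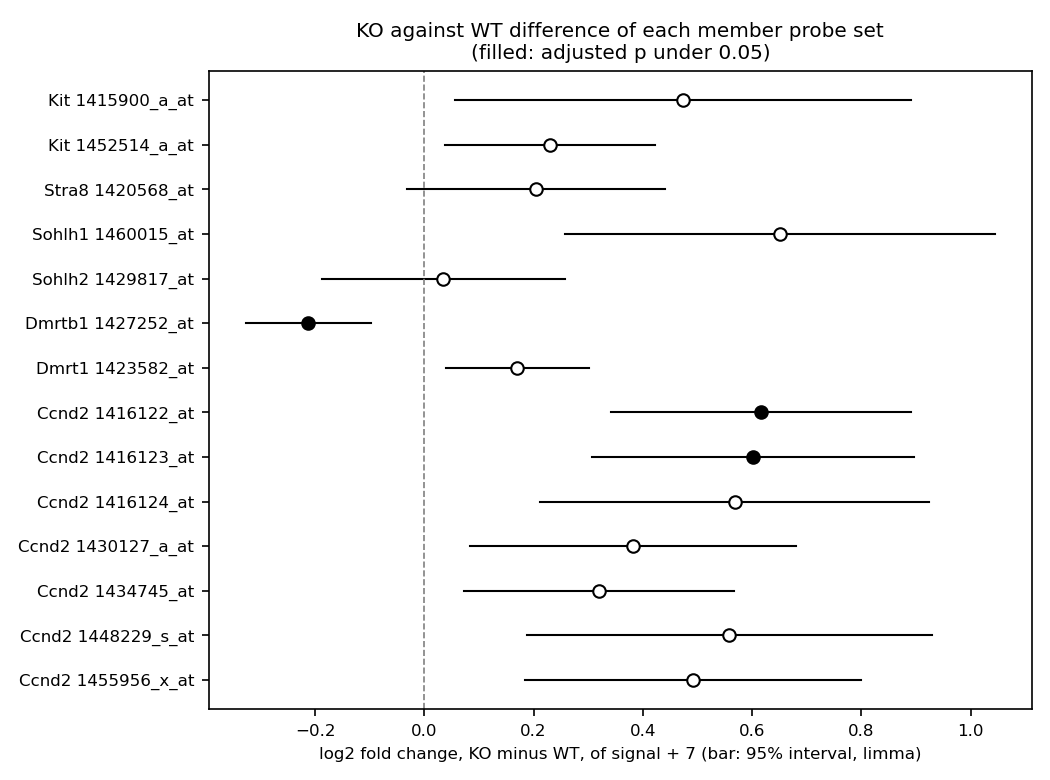
Log2 fold change of each member probe set, KO minus WT, of signal plus 7, with its 95% interval from limma, filled where the adjusted p was under 0.05. Every Ccnd2 interval lies above 0, that of Dmrtb1 (-0.33 to -0.098) lies below it, and those of Stra8 and Sohlh2 cross it.

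Dmrtb1 was the only member that fell. Its signals were 1167, 1165 and 1076 in KO, against 1281, 1390 and 1281 in WT, a mean of 1136 ± 52 in KO and 1317 ± 63 in WT (SD, n = 3 each). Each KO array was below each WT array, and KO replicate 3 was the lowest. The difference was small, at -0.21 ± 0.051 (SE, adjusted p = 0.0359), a KO level of 0.863 of WT. It was called under 7 of 15 alternatives and lost under median centring (adjusted p = 0.0685), without the dim filter (adjusted p = 0.0801), without the intensity trend (adjusted p = 0.141) and when any 1 array but KO replicate 1 was left out (adjusted p 0.0606 to 0.106). Its direction was the same in all of them.

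Markers of later germ cells fell alongside. The summed signal of 9 pachytene spermatocyte genes was 8839, 8493 and 7698 in KO, against 9591, 10137 and 9743 in WT, with 6 of 9 called lower and 0 higher (limma, 0 higher at an unadjusted p under 0.05). The glycolytic enzyme gene Pgk2 had a difference of -0.56 (adjusted p = 0.0033) and Nme5 one of -0.37 (adjusted p = 0.0049). KO replicate 3 was lowest in this sum as it was for Dmrtb1, and WT replicate 2 highest in both. For round spermatid genes 10 of 10 were called lower, with Actl7b at -0.84 and Tekt2 at -0.69. Their sums of 2789.9, 2745 and 2659.5 in KO, against 4112, 3844 and 4178 in WT, had KO replicate 3 lowest too, but WT replicate 2 the lowest WT array. By the median deviation from the WT mean, KO replicate 3 was the least lowered, at -0.69, with KO replicate 1 at -0.96 and KO replicate 2 at -0.81 on the log2 scale. The part of these cells in the Dmrtb1 difference was not tested.

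Dmrt1, the other DM domain member, lay on the opposite side. It had signals of 648, 643 and 639 in KO, against 543, 565 and 606 in WT. All KO arrays lay within a narrow band above the WT arrays, but the difference of 0.17 did not pass (95% interval 0.039 to 0.30, adjusted p = 0.0987). In the Sertoli cells that also use Dmrt1, 12 of 12 tested marker genes had higher KO means and 4 were called higher, with sums over all 13 listed genes of 7516, 7317 and 7883 in KO, against 6504, 6468 and 6809 in WT. Their part in the Dmrt1 difference was not tested.

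Sohlh1 and Sohlh2 encode partner factors, and neither was called. Sohlh1 had signals of 55.4, 57.0 and 68.6 in KO, against 37.2, 26.6 and 45.6 in WT, the highest KO to WT ratio among the members at 1.57-fold. The KO arrays lay above the WT arrays, which spread widely, and the test just missed the threshold (0.65 ± 0.18 SE, 95% interval 0.26 to 1.04, adjusted p = 0.0524). It was called under 4 of the 14 alternatives that tested it: a pseudocount of 39 (adjusted p = 0.0487), array weights (adjusted p = 0.00612), the replicate number as a block (adjusted p = 0.0143) and without WT replicate 3 (adjusted p = 0.0408). Sohlh2 had signals of 163, 157 and 158 in KO, against 174, 147 and 146.5 in WT, with the KO arrays inside the WT range. Its difference of 0.035 had an interval of -0.19 to 0.26, and its sign turned under quantile normalization and median centring, so no direction can be read. Whether the 2 genes differed from each other in response was not tested.

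Kit was measured by 2 probe sets, and neither passed. Probe set 1452514_a_at had signals of 180.0, 187 and 179 in KO, against 153, 158 and 151 in WT, without overlap and with little spread (0.23, 95% interval 0.038 to 0.42, adjusted p = 0.121). Probe set 1415900_a_at was dim, at 42.5, 60.4 and 53.9 in KO, against 34.3, 46.6 and 27.3 in WT, and KO replicate 1 fell below WT replicate 2 (0.47, 95% interval 0.056 to 0.89, adjusted p = 0.136). The truncated Kit transcript of mouse spermatids could not be separated here, since the sources do not say which transcripts each probe set reads. Of 8 mast cell genes only Hdc, which other cells also use, passed the dim filter (log2 fold change 0.41, adjusted p = 0.161). The protease gene Cpa3 had signals of 3.21 ± 0.923 in KO and 2.92 ± 1.53 in WT (SD, n = 3 each).

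Stra8, the retinoic acid target that opens the meiotic programme, did not pass. Its signals were 241, 263.5 and 304 in KO, against 218, 221 and 258 in WT. WT replicate 3 lay above KO replicate 1, so the groups overlapped, and replicate 3 was the highest of each group. The interval of the difference ran from -0.032 to 0.44 (log2 fold change 0.20, adjusted p = 0.233), so it holds 0.

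**Figure D3:**
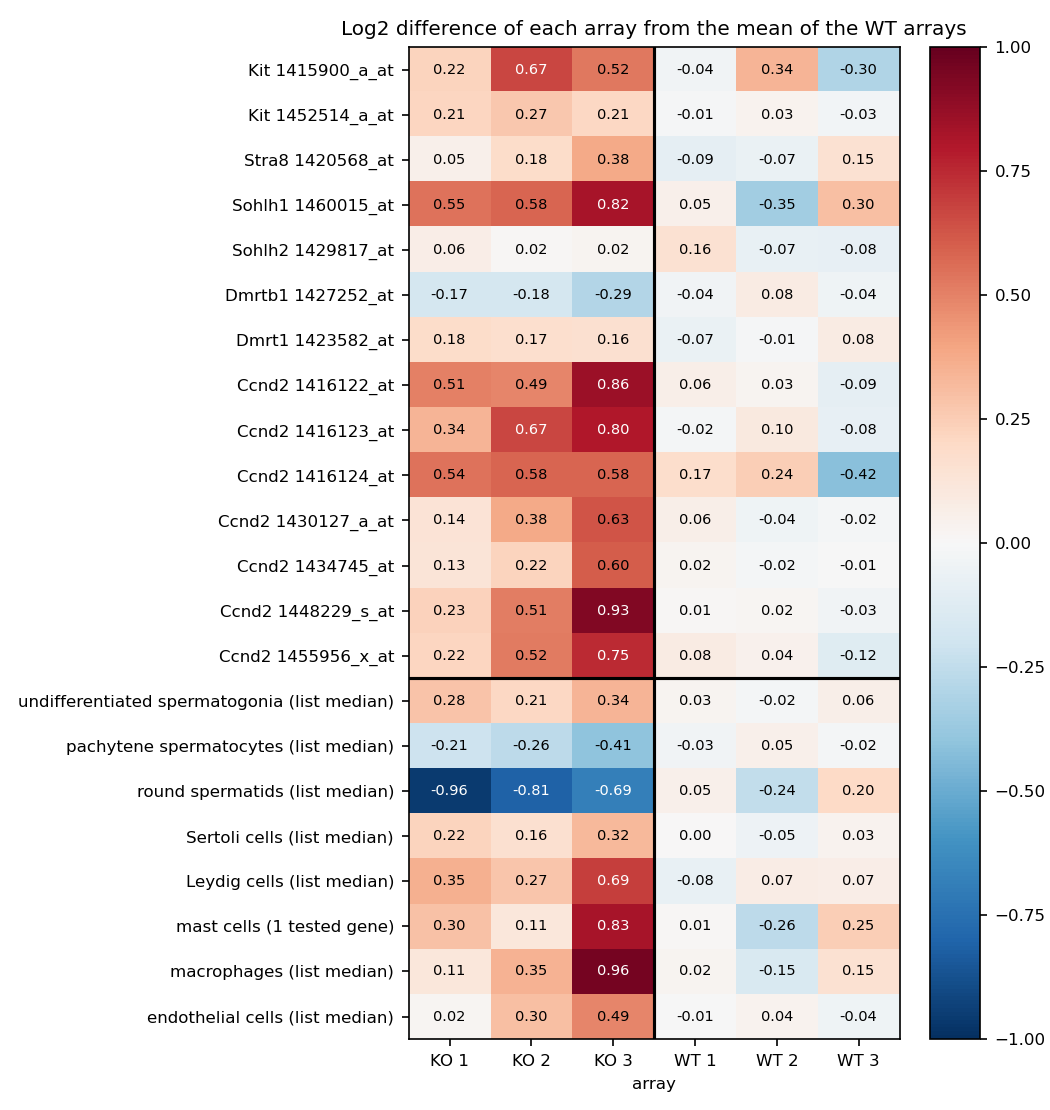
Log2 difference of each array (columns, KO left of WT) from the mean of the WT arrays, for the 14 member probe sets (upper rows) and for the median of each marker list (lower rows). Ccnd2 and the macrophage list are highest in KO replicate 3, Dmrtb1 and the pachytene list are lowest there, and the Sohlh2 row stays near 0 in KO. Among the KO arrays, every marker row but the pachytene list is highest in replicate 3.

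The members were then set beside other genes of the same steps, with each gene represented by its brightest probe set. Over all 12971 tested genes 2.98% were called higher and 7.37% lower, with a median of 0.037. In the list of KIT ligand and signalling genes 1 of 14 tested was called higher and 0 lower (limma, 7 higher and 0 lower at an unadjusted p under 0.05), with a median of 0.18. Ptpn11, a tyrosine phosphatase that acts below receptor kinases, had signals of 439, 443 and 508 in KO, against 344, 349 and 404 in WT (log2 fold change 0.34, adjusted p = 0.0442). Its call held under 7 of 15 alternatives and was lost when any 1 array but WT replicate 3 was left out (adjusted p 0.0613 to 0.168). Kitl, the ligand gene, had signals of 776, 691 and 786 in KO, against 677, 591 and 629 in WT, above WT on each KO array but not called (0.25, 95% interval 0.089 to 0.40, adjusted p = 0.0617). Sos1, which activates RAS, stood likewise at 0.20 (adjusted p = 0.0565). The dimmer probe sets of these 3 genes were not called. Those of Ptpn11 were at 0.42 and 0.24 (adjusted p = 0.154 and 0.272). For Kitl they ran from 0.044 to 0.36 and for Sos1 from 0.027 to 0.22.

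Among 12 partners and inhibitors of the D cyclins, 1 was called lower and 0 higher (limma, 2 lower and 3 higher at an unadjusted p under 0.05), with a median of 0.18. Cdkn2c, an inhibitor of CDK4 and CDK6, had signals of 616, 645 and 537 in KO, against 792, 804 and 743 in WT, and fell by 0.38 on the log2 scale (SE 0.073, adjusted p = 0.0173). Its call was lost without WT replicate 1 (adjusted p = 0.0905) and without the intensity trend (adjusted p = 0.071). The Cdkn2c signal was lowest in KO replicate 3 and highest in WT replicate 2, as was the summed pachytene signal. The part of pachytene cells in the Cdkn2c difference was not tested. The other D cyclins did not pass: Ccnd1 had a difference of 0.19 (95% interval -0.05 to 0.43, adjusted p = 0.27). Ccnd3 had one of 0.18 (95% interval -0.26 to 0.61, adjusted p = 0.582). Their signs turned with array weights, and Ccnd3 also without WT replicate 2. Cdk4, the kinase partner, had a difference of 0.20 (adjusted p = 0.102). Whether Ccnd2 differed from Ccnd1 and Ccnd3 in its response was not tested.

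Of 12 other spermatogonial differentiation genes tested, 2 were called higher and 0 lower (limma, 6 higher and 1 lower at an unadjusted p under 0.05), with a median of 0.17. Lhx8, a LIM homeobox gene known downstream of SOHLH1 in mouse oocytes, had signals of 136, 155 and 159 in KO, against 105, 96.9 and 108 in WT (log2 fold change 0.51, adjusted p = 0.0222). Crabp1, a cytoplasmic retinoic acid binding protein gene, had 569, 535 and 661 in KO, against 490, 424 and 417 in WT (0.40, adjusted p = 0.0301). Both separated the groups completely, among 7 of the 12 with KO above WT, where 19.1% of all tested probe sets lay so. Without single arrays Lhx8 lost its call for KO replicates 2 and 3 and WT replicates 1 and 2 (adjusted p 0.0561 to 0.0961), and Crabp1 for all but KO replicate 2 (adjusted p 0.0539 to 0.0777). Crabp1 also lost it without the dim filter (adjusted p = 0.0687) and without the intensity trend (adjusted p = 0.0886). Neurog3 and Lin28b were below the dim filter, and Nanos3 was not analysed here.

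The 13 tested genes of the meiotic entry circuit lay closest to 0. None was called (limma, 0 higher and 1 lower at an unadjusted p under 0.05), 11 had lower means, and the median was -0.044. Meioc and Ythdc2, which act together in the mouse to carry germ cells into meiotic prophase, had differences of -0.044 (95% interval -0.18 to 0.087) and -0.076 (95% interval -0.22 to 0.070). Rec8, a meiotic cohesin gene induced by retinoic acid, had signals of 113, 131 and 155 in KO, against 131, 113 and 158 in WT, with the groups interleaved (95% interval -0.34 to 0.32). The cohesin genes Stag3 (-0.19, adjusted p = 0.0699) and Smc1b (-0.10, adjusted p = 0.201) had the lowest p values, and both had all KO arrays below all WT arrays. They were the only 2 of the 13 to do so, where 14.8% of all tested probe sets did, so this separation was near the general share. The signs of Meioc, Ythdc2 and Rec8 turned in 1 or 2 of 15 alternatives each.

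Of the other DM domain genes, 4 of the 6 on the array passed the dim filter, and 1 was called lower and 0 higher (limma, 1 lower and 3 higher at an unadjusted p under 0.05). Dmrtc2 (DMRT7), which the mouse needs in pachytene spermatocytes, had signals of 394, 406 and 360 in KO, against 492, 480.5 and 498.5 in WT. It fell by 0.34 on the log2 scale (SE 0.068, adjusted p = 0.0198), and lost its call without WT replicate 1 (adjusted p = 0.1), without WT replicate 3 (adjusted p = 0.0538) and without the intensity trend (adjusted p = 0.0625). Dmrta1 had signals of 912, 846.5 and 836 in KO, against 794.5, 759.9 and 758 in WT, and did not pass (0.16, adjusted p = 0.0847). The DM domain genes that fell, Dmrtb1 and Dmrtc2, were both lowest in KO replicate 3, the array with the lowest summed pachytene signal. The same array was the lowest for genes that were not called, such as Meioc (960) and Spo11 (591). WT replicate 2 had the highest pachytene sum (10137), and it was the highest WT array for Dmrtb1 but the lowest for Dmrtc2. The part of pachytene cells in these differences was not tested.

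**Figure D4:**
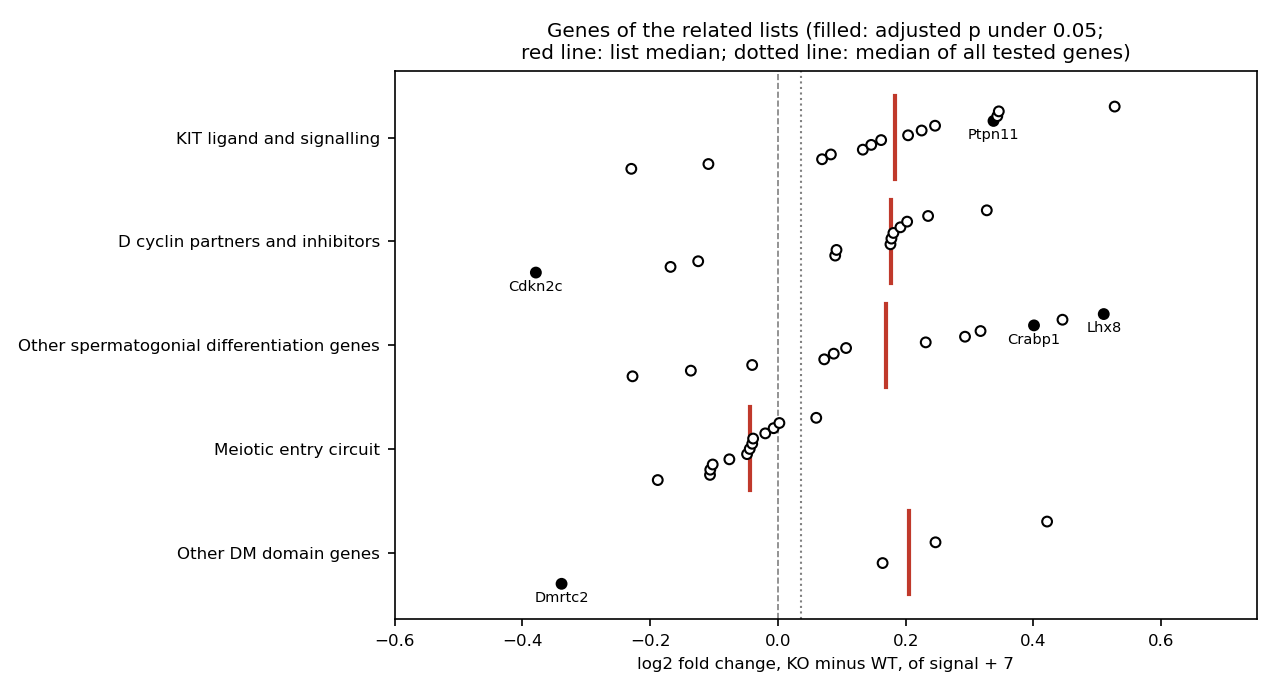
Log2 fold change, KO minus WT, of signal plus 7, for each tested gene of the 5 related lists, by its brightest probe set, filled and named where the adjusted p was under 0.05. Red lines mark list medians and the dotted line the median of all tested genes (0.037): the meiotic entry circuit is centred at -0.044 and the other lists between 0.17 and 0.21.

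The undifferentiated spermatogonia that precede these steps had 4 of 10 tested markers called higher and 0 lower (limma, 6 higher and 0 lower at an unadjusted p under 0.05). The summed signal of all 13 listed genes was 3140.3, 3105 and 3119.7 in KO, against 2617, 2573 and 2625 in WT. Zbtb16, a transcription factor of this pool, rose by 0.93 on the log2 scale (limma, adjusted p = 0.00273). That value is from its brightest probe set, whose suffix marks probes that can also match other transcripts. The dimmer Zbtb16 probe set, without that suffix, rose less, by 0.52, and was also called (limma, adjusted p = 0.0338). Lin28a, an RNA-binding protein gene, rose by 0.59 (limma, adjusted p = 0.0062). Gfra1, Id4 and Cdh1, named after their values were seen, had lower KO means and did not pass (adjusted p 0.301 to 0.609). This sum was nearly level across the KO arrays. The median deviation of the tested genes from the WT mean was 0.28, 0.21 and 0.34 in KO replicates 1 to 3. By that measure KO replicate 3 was the highest KO array, as it was for the Ccnd2 median. The part of these cells in the member differences was not tested.

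The genes most like each member over the 6 arrays were listed by Pearson correlation of log2 signals among 12164 other genes. With 6 points that include the genotype difference, values near 1 are easily reached, and they are descriptions only. The closest to Dmrtb1 were Smg9, Pard6a and Aknaos (0.997 to 0.999), which were also called lower. For Sohlh1 they were Ndel1, Lama1 and Mrm1 (all 0.998), for Stra8 Rapgef5, Nags and Dock8 (0.995 to 0.998), and for Kit Clstn2, Tmtc2 and Clasp2 (0.993 to 0.996). Ccnd2 was closest to Grb2, Zcchc24 and Mmp19 (0.997 to 0.998), Dmrt1 to Pnpla8, Atp6v0a2 and Zfp954 (0.986 to 0.988), and Sohlh2 to Akap5, Tafa5 and Mvb12a (0.967 to 0.995).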

How the data were processed

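The deposited values are linear signal intensities, 1 for each probe set of an array, made with MAS5 per the submitters' processing notes, which give no version. The authors' scaling left a mean of 150.0 on every array once the lowest and highest 2% were dropped, so levels are relative to each array's total. Median signals were 37.1 to 40.9. The 64 control probe sets were left out. Symbols came from the platform annotation, updated by Entrez identifier to RefSeq GRCm38.p6 (34741 of 34945 matched).

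Signals were tested as log2(signal + 7), 7 being the 25th percentile of all values, which understates changes of dim probe sets. Probe sets with a mean over 6 arrays of at least 20.5 (the 40th percentile) were tested with limma 3.58.1 in R 4.3.3 (eBayes with intensity trend, two-sided, Benjamini-Hochberg over all tested probe sets). The fit was also run on simulated data with independent noise for each probe set and no shift shared across an array. That simulation does not bear on how the calls vary with the processing. The number of arrays limits the precision. Members, lists and tests were chosen with earlier results of these data known.

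Named genes were all member probe sets, up to 4 called and the 2 of lowest p in each related list, a few set genes such as Kitl and Cdk4, the 2 of lowest p in each marker list, and the 3 genes most correlated with each member. The difference and call of each, apart from the correlated genes, were recomputed (for marker genes, a choice made after seeing the data) with quantile normalization, median centring, pseudocounts of 1 and 39, no dim filter or one at the 60th percentile, no intensity trend, and array weights, as well as with replicate number as a blocking factor and without each array in turn.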

Additional observations from a re-analysis of the deposited data

How the results depend on the processing

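The count of called member probe sets depended on the processing. Against 2 called higher and 1 lower, 1 was called higher without the dim filter and without the intensity trend, 12 with array weights and 7 with the replicate block, and 0 to 4 when 1 array was left out. The count called lower was 0 under median centring, without the dim filter and without the intensity trend, and 0 to 1 when 1 array was left out. At least 1 Ccnd2 probe set was called in 13 of the 15 alternatives, the exceptions being those without WT replicate 1 or 3.

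Over all probe sets 610 were called higher and 1414 lower. The higher count was 247 under median centring (with 1382 lower), 188 without the dim filter, 174 without the intensity trend, 3771 with array weights and 2173 with the replicate block, and 16 to 388 when 1 array was left out. The lower count was 817 without the dim filter, 569 without the intensity trend, 3446 with array weights and 2330 with the replicate block, and 143 to 1146 when 1 array was left out. In the related lists, the KIT signalling genes called higher numbered 6 with array weights and 5 with the replicate block, but 0 under median centring, without the dim filter, without the intensity trend and without KO replicate 2 or 3 or WT replicate 1 or 2. The differentiation genes numbered 4 with array weights or the block, 1 without the dim filter or the intensity trend, and 0 without KO replicate 3 or WT replicate 1 or 2. The cause of these shifts was not tested, except that leaving out an array leaves fewer samples. The design text speaks of pairs without saying what joins them, and the numbers were not taken to pair the samples. Deviations from the group means correlated at 0.0793, 0.457 and 0.266 between same-numbered arrays. Between arrays of different number the correlations ran from -0.334 to 0.112. Each KO array correlated best with the WT array of its own number, while WT replicate 1 correlated best with KO replicate 3 (0.112). Whether the samples are pairs cannot be decided from these values, so the replicate block stands as an alternative fit.

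Signs turned for 6 genes, none of them called. Sohlh2 was at -0.0053 after quantile normalization, -0.010 after median centring, -0.097 with array weights, and -0.0967 to 0.112 over all alternatives, reaching -0.0027 and -0.0059 without WT replicates 2 and 3. With array weights Ccnd1 was at -0.0022, Ccnd3 at -0.0002 and Ythdc2 at 0.0080. When 1 array was left out, Ccnd3 ranged from -0.052 to 0.343, Meioc from -0.078 to 0.021 and Rec8 from -0.118 to 0.115. The other member and named gene differences, apart from the correlated genes, which were not rerun, kept their sign in the alternatives that tested them. Among marker genes, in alternatives chosen after seeing the data, Zbtb16, Lin28a, Pgk2, Nme5, Actl7b and Tekt2 were called in 15 of 15, Drd4 in 14, Star in 11, Wt1 in 8 and Scarb1 in 7 of 15, and Robo4 in 7 and Tek in 6 of 14. Signal over background limits the dim Kit probe set and Sohlh1 most, which the filter at the 60th percentile leaves out.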
